A study of Homo sapiens with 17 samples.

Results

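Newly made RNA of 8 genes of epidermal growth factor (EGF) signalling was followed in SNU-761 cells, an established line from a human liver carcinoma. The genes were given by name and by Ensembl ID, with earlier results of these data known, and make up 8 of the 19867 genes in the count table. The rule itself uses no measured value. They comprise 4 ligands, AREG (ENSG00000109321), EREG (ENSG00000124882), HBEGF (ENSG00000113070) and TGFA (ENSG00000163235). The receptors are EGFR (ENSG00000146648), ERBB2 (ENSG00000141736), ERBB3 (ENSG00000065361) and MET (ENSG00000105976), also 4 in number. RNA was measured by SLAM-seq, in which cells take up thiouridine and RNA made in its presence is recognised by T>C conversions in the reads. The study asked how transcription responds shortly after treatment with either of 2 agents. VT107 inhibits the TEAD transcription factors, through which the co-activators YAP and TAZ act on DNA, and intetumumab (a biosimilar here) is an antibody against the integrin subunit ITGAV.

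All treated and control cells were wild type and were collected at 4 h, and the length of the thiouridine exposure is not given in the sources used here. In the VT107 experiment, 2 libraries each came from cells given DMSO (the solvent), VT107 at 0.1 µM and VT107 at 2.15 µM. In the intetumumab experiment, 3 libraries each came from cells given intetumumab at 1.5 µg/ml, intetumumab at the higher dose of 5 µg/ml, or a human IgG1 kappa isotype antibody, also at 5 µg/ml. Each experiment also had 1 library without thiouridine. The 15 labelled libraries held 435343 to 1778876 counts, and the unlabelled ones held 10702 and 4553. Whether replicate libraries stem from different cultures is not stated in the labels, so the p-values reflect the spread among these libraries alone, which may be technical. All work was in 1 cell line, whose identity was not checked against marker genes here because no table paired their symbols with the Ensembl IDs of the counts.

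The ligands are made as membrane-anchored precursors and are released by proteases at the cell surface, after which they bind EGFR on the same or on neighbouring cells. EGFR, ERBB2 and ERBB3 form pairs with each other and signal through the MAP kinase and PI3 kinase pathways, while MET, the receptor of hepatocyte growth factor, feeds into the same pathways. In liver these receptors are known for their part in regeneration and in carcinoma, and AREG is known as a gene that YAP activates.

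AREG and EREG lie next to each other on chromosome 4, on the + strand, at chr4:74445136-74455005 and chr4:74365145-74388749 in RefSeq's annotation of GRCh38.p14, with 56386 bases between the end of EREG and the start of AREG. HBEGF lies on the - strand of chromosome 5 at chr5:140332843-140346603. The promoter windows of these 3 ligands are printed because AREG and HBEGF gave the largest differences among the ligands, in opposite directions, while EREG is the neighbour of AREG. Each window is RefSeq's 300 bases of the gene's own strand, from 250 before the start to 50 after it (chr4:74444886-74445185, chr4:74364895-74365194 and chr5:140346554-140346853). Capitals mark matches to any of 5 motifs.
AREG: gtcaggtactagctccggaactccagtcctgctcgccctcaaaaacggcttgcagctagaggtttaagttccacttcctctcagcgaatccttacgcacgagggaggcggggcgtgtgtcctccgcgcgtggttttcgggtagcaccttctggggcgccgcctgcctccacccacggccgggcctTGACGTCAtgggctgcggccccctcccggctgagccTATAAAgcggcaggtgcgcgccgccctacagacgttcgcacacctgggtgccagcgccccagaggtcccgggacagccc
EREG: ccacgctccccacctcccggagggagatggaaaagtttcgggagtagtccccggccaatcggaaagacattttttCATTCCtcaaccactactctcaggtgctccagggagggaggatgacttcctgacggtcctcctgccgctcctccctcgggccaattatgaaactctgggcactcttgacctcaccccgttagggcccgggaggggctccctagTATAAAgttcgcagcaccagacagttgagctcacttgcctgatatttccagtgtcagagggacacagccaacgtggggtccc
HBEGF: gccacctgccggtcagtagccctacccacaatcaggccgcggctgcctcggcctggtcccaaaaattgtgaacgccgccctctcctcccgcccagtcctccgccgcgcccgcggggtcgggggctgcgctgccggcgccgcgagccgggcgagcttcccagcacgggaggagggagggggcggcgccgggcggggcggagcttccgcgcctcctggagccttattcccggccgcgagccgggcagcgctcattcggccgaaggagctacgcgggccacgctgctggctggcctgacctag

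The motifs searched, on both strands, were the TEAD motif GGAATG, the AP-1 motif TGANTCA, the cAMP response element TGACGTCA, the TATA motif TATAAA and the CArG box of SRF. Of all 35116 windows of this length, 14% held the TEAD motif, 7.71% the AP-1 motif, 1.85% the cAMP response element, 11.5% the TATA motif and 1.29% the CArG box. The AREG window held a cAMP response element whose first base is at -65 and a TATA motif at -29, counting the annotated start as 0. The EREG window held a TATA motif at -32 and the TEAD motif on the opposite strand (read as CATTCC) at -175. The HBEGF window held none of the 5. Among the windows not printed, window 2 of EGFR held the TEAD motif on the opposite strand at -114 from its own start. It also held AP-1 motifs at -232 and -136 and TATA motifs at -146 and -36. The ERBB2 window held an AP-1 motif at -222, and window 1 of EGFR and the windows of TGFA and MET held none. These are letters in a window, and binding was not measured. Of the 8 genes, all had a symbol in the RefSeq gene table and 7 had a promoter window, while ERBB3 had none.

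All 8 genes passed the low-count filter in both experiments, in which 10083 and 9024 genes were tested. In the unlabelled libraries EGFR had 2 and 1 counts, which is 0.595% and 0.689% of its mean count in the labelled libraries of the same experiment. The other 7 genes had 0 counts there, which allows up to 3 counts in each library. The percentages for EGFR are of raw counts, not scaled for the reads sequenced in each library, so they are no background rate. Levels below are counts per 1e6 counts (CPM) after TMM scaling within each experiment, so levels of the 2 experiments were not tested against each other. Where a level of RNA from a whole culture is lower, fewer cells with the RNA and less RNA per cell cannot be told apart.

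HBEGF encodes the heparin-binding ligand of EGFR and ERBB4. It was lower in every treated library than in every control library of its experiment, at each dose of both agents. The doses of an agent share their controls, so they are not separate results. Of all genes, 19.3% and 20.6% lay wholly below DMSO at 0.1 and 2.15 µM VT107. The share wholly below the isotype was 6.72% at 1.5 µg/ml and 8.26% at 5 µg/ml intetumumab. The libraries given DMSO held 304 and 262 CPM. Those given VT107 held 113 and 121 CPM at 0.1 µM, and 111 and 136 CPM at 2.15 µM. The DMSO mean of 283 ± 29.6 CPM (SD, n = 2) thus stood above 117 ± 5.32 CPM at the lower dose and 123 ± 17.5 CPM at the higher dose (both SD, n = 2). The DMSO libraries overlapped with neither dose. HBEGF held 148, 115 and 150.1 CPM with the isotype antibody. It held 96.9, 53.3 and 79.3 CPM with intetumumab at 1.5 µg/ml, and 78.3, 55.5 and 58.9 CPM at 5 µg/ml. The highest intetumumab library was below the lowest isotype library, with means of 137 ± 19.8, 76.5 ± 21.9 and 64.2 ± 12.3 CPM (SD, n = 3 each) from the isotype to the higher dose.

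The log2 fold change of HBEGF was -1.27 (SE 0.25, 95% interval -1.85 to -0.70) at 0.1 µM VT107 and -1.20 (SE 0.25, -1.76 to -0.63) at 2.15 µM. With intetumumab it was -0.85 (SE 0.26, -1.43 to -0.28) at 1.5 µg/ml and -1.12 (SE 0.27, -1.70 to -0.53) at 5 µg/ml. None of these passed edgeR's quasi-likelihood test with Benjamini-Hochberg adjustment over all genes, where the adjusted p was 0.148, 0.126, 0.603 and 0.205 in the same order. DESeq2 on the same genes did call HBEGF at 0.1 µM (adjusted p = 0.00271), at 2.15 µM (0.00259) and at 5 µg/ml (0.0177). By its p in edgeR, HBEGF ranked 54 and 89 among the genes tested at the VT107 doses, and 103 and 55 at the intetumumab doses. Between doses of 1 agent the log2 difference was 0.08 (95% interval -0.50 to 0.65) for VT107 and -0.26 (-0.87 to 0.34) for intetumumab, higher over lower dose. The effects of the higher doses of both agents, each against its own control, differed by -0.08 (SE 0.38, -0.88 to 0.72; edgeR adjusted p = 0.977), so the interval allows a difference in either direction.

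AREG, which encodes amphiregulin, a ligand that binds EGFR alone among the family's receptors, had values in the opposite direction. DMSO libraries held 20.4 and 26.1 CPM, against 67.1 and 40.2 CPM at 0.1 µM and 52.5 and 68.6 CPM at 2.15 µM VT107. All 4 VT107 libraries were above both DMSO libraries, with means of 53.7 ± 19.0 and 60.6 ± 11.4 CPM at the doses and 23.2 ± 4.03 CPM in DMSO (SD, n = 2 each). Wholly above DMSO lay 20.4% of all genes at 0.1 µM and 24.1% at 2.15 µM. Isotype libraries held 87.5, 45.6 and 62.6 CPM. Intetumumab libraries held 135, 103 and 157 CPM at 1.5 µg/ml, all above the isotype, as were 5.62% of all genes. They held 78.3, 90.6 and 151 CPM at 5 µg/ml, where the groups overlapped. Mean levels in that experiment were 65.2 ± 21.1, 131 ± 26.9 and 106.7 ± 39.0 CPM (SD, n = 3 each).

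The log2 fold change of AREG was 1.20 (SE 0.42, 95% interval 0.23 to 2.17) at 0.1 µM and 1.37 (SE 0.42, 0.42 to 2.32) at 2.15 µM VT107. It was 1.0 (SE 0.31, 0.32 to 1.68) at 1.5 µg/ml and 0.73 (SE 0.32, 0.04 to 1.41) at 5 µg/ml intetumumab. The edgeR adjusted p was 0.336, 0.281, 0.625 and 0.521 in this order, so AREG was not called. Its counts were low, 19 and 27 in the DMSO libraries and 32 to 97 with VT107. Without replicate 3 of the 5 µg/ml group the value at that dose was 0.38, and without replicate 1 of the 0.1 µM group the value there was 0.78.

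EREG and TGFA encode epiregulin and transforming growth factor alpha. EREG, the neighbour of AREG, held 25.8 to 35.5 CPM in the 6 VT107 experiment libraries, on 23 to 53 counts. It was not tested against AREG. Its log2 fold changes at the doses were 0.13 (95% interval -0.81 to 1.06) and 0.17 (-0.74 to 1.09), so a change in either direction is allowed. With intetumumab it ranged from 28.2 to 73.1 CPM, against 32.8 to 37.3 CPM in the isotype libraries, and its log2 fold changes were 0.49 and 0.56, or 0.14 and 0.25 without replicate 3 of the treated group. Its treated and control libraries overlapped with either agent at the lower and the higher dose. TGFA ranged from 9.66 to 27.1 CPM in the VT107 experiment and from 16.2 to 46.1 CPM in the intetumumab experiment. Its log2 fold changes were 0.62 and 0.39 with VT107 and 0.29 and 0.50 with intetumumab, on 9 to 37 counts per library. With VT107 at 0.1 µM the value was 0.11 without DMSO replicate 1 and 1.42 without DMSO replicate 2, and with intetumumab at 5 µg/ml it was 0.14 without replicate 3 of that dose. The edgeR adjusted p of both genes lay between 0.686 and 0.985 across the agents.

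**Figure D1:**
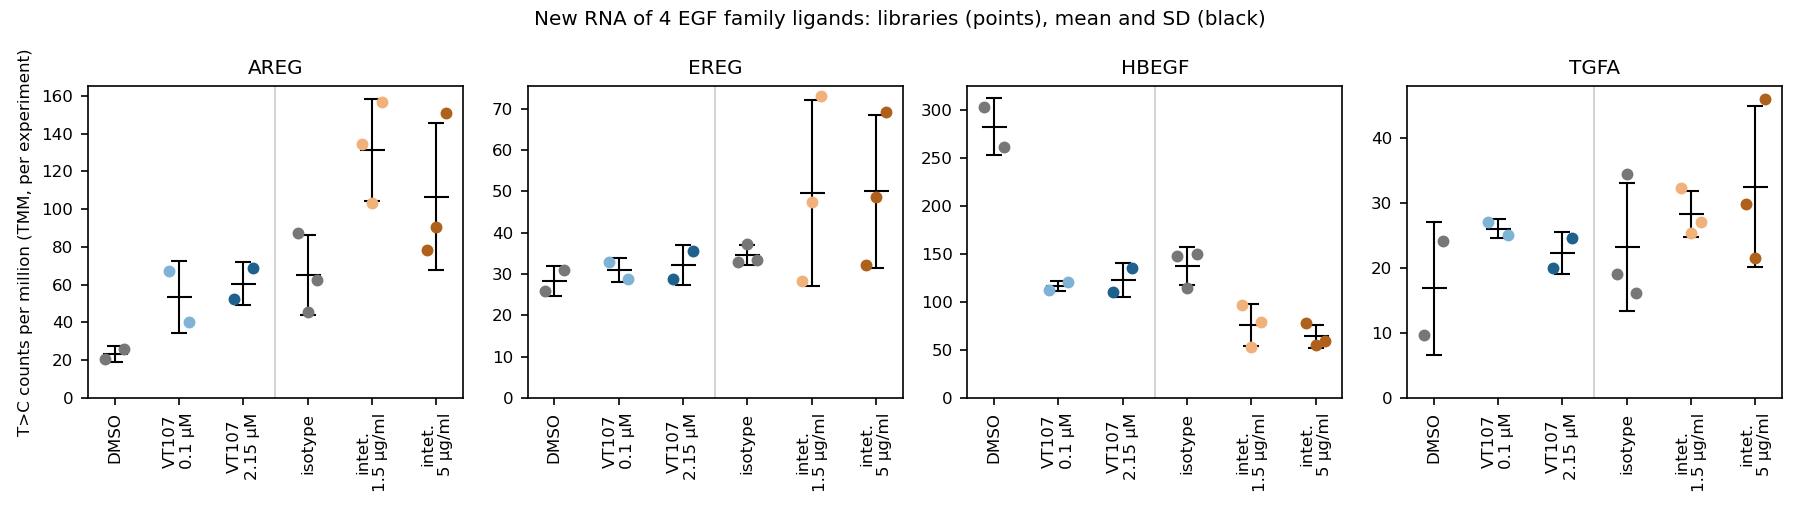
TMM-scaled CPM of newly made RNA (linear y axis) of AREG, EREG, HBEGF and TGFA in each labelled library (points), with the group mean and SD in black, and a grey line between the experiments, which were scaled separately. HBEGF is lower in all treated libraries than in their controls (DMSO mean 283 CPM, isotype mean 137 CPM), and AREG lies above DMSO in all 4 VT107 libraries. At 0.1 and 2.15 µM, 20.4% and 24.1% of all genes lay wholly above DMSO, and 19.3% and 20.6% wholly below. At 1.5 and 5 µg/ml, 6.72% and 8.26% lay wholly below the isotype.

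Among the receptors, ERBB3 showed the largest difference with VT107. ERBB3 binds neuregulins, has little kinase activity of its own and signals mainly in a pair with ERBB2 or EGFR. It held 121 and 77.3 CPM in DMSO, 189.6 and 261 CPM at 0.1 µM and 227 and 251 CPM at 2.15 µM VT107. The libraries of each VT107 dose lay above both DMSO libraries, as did 20.4% of all genes at 0.1 µM and 24.1% at 2.15 µM. The means were 99.3 ± 31.1, 225 ± 50.7 and 239 ± 16.5 CPM (SD, n = 2 each). With the isotype it held 35.5, 29.0 and 39.9 CPM, with intetumumab at 1.5 µg/ml 35.0, 51.0 and 43.8 CPM, and at 5 µg/ml 62.2, 35.2 and 29.5 CPM. The intetumumab libraries overlapped the isotype libraries at both doses. ERBB3 counts were low in that experiment, 21 to 44 per labelled library, against 80 to 420 in the VT107 experiment.

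The log2 fold change of ERBB3 was 1.18 (SE 0.30, 95% interval 0.49 to 1.88) at 0.1 µM and 1.27 (SE 0.30, 0.58 to 1.96) at 2.15 µM VT107, with an edgeR adjusted p of 0.242 and 0.172. DESeq2 called it at both doses, with an adjusted p of 0.0262 and 0.00946. With intetumumab the log2 fold change was 0.31 (SE 0.34) and 0.24 (SE 0.34, -0.51 to 0.98), with an edgeR adjusted p of 0.985 and 0.883. The effect of 2.15 µM VT107 exceeded that of 5 µg/ml intetumumab by 1.05 on the log2 scale (SE 0.46, 95% interval 0.08 to 2.02). This difference did not pass edgeR's test over all genes (adjusted p = 0.497). The higher VT107 dose differed from the lower by 0.08 (-0.58 to 0.75).

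EGFR, the receptor shared by all 4 ligands, held 243 and 404 CPM in DMSO, 285 and 274 CPM at 0.1 µM and 285 and 297 CPM at 2.15 µM VT107. The DMSO libraries thus lay on either side of all VT107 libraries, and their spread (323 ± 114 CPM, SD, n = 2) was wider than any difference between group means. The log2 fold changes were -0.21 (SE 0.27) and -0.15 (SE 0.27, 95% interval -0.76 to 0.46). Isotype libraries held 242, 221 and 234 CPM, those at 1.5 µg/ml intetumumab 183, 217 and 198 CPM, and those at 5 µg/ml 161, 156 and 192 CPM. Each intetumumab library was below every isotype library, with means of 232 ± 10.6, 199 ± 16.8 and 169.6 ± 19.7 CPM (SD, n = 3 each). Wholly below the isotype lay 6.72% of all genes at 1.5 µg/ml and 8.26% at 5 µg/ml. The log2 fold changes of EGFR were -0.22 (SE 0.17) and -0.45 (SE 0.17, -0.83 to -0.08), and the edgeR adjusted p was 0.969 and 0.432.

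ERBB2, the partner receptor that has no known ligand of its own, spanned 45.2 to 58.0 CPM in all VT107 experiment libraries but 1, replicate 1 at 2.15 µM with 24.4 CPM. Its log2 fold change was -0.19 (SE 0.42) at 0.1 µM and -0.63 (SE 0.42, 95% interval -1.59 to 0.33) at 2.15 µM. The VT107 libraries of ERBB2 lay below DMSO at each dose, as did 19.3% and 20.6% of all genes. In the intetumumab experiment its libraries spread widely, with 31.4, 55.2 and 78.8 CPM in the isotype group and 25.3, 77.1 and 8.96 CPM at 5 µg/ml, the last of these on 7 counts. The log2 fold change was 0.35 (SE 0.54) at 1.5 µg/ml and -0.56 (SE 0.57, -1.78 to 0.67) at 5 µg/ml, and groups overlapped at both. These values rest on single libraries. At 5 µg/ml ERBB2 was at -1.80 without replicate 2 of that dose and at -0.058 without replicate 3, and at 1.5 µg/ml it was at 0.074 without isotype replicate 1 and at 0.71 without isotype replicate 3. At 2.15 µM VT107 it was at -0.21 without replicate 1 of that dose and at -1.20 without replicate 2.

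MET ranged from 53.6 to 96.6 CPM in the VT107 experiment, and the DMSO libraries alone held both 96.6 and 54.1 CPM. Its log2 fold changes were -0.04 (SE 0.37) and -0.45 (SE 0.37, -1.30 to 0.39) with VT107 and -0.55 (SE 0.39) and -0.24 (SE 0.39) with intetumumab, where replicate 3 at 1.5 µg/ml held 16.7 CPM on 8 counts and the other labelled libraries 54.1 to 82.8 CPM. Without that library the value at 1.5 µg/ml was -0.19, and the value at 2.15 µM VT107 was 0.024 without DMSO replicate 1 and -0.81 without DMSO replicate 2. The edgeR adjusted p of ERBB2 and MET lay between 0.630 and 0.985 across the agents.

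**Figure D2:**
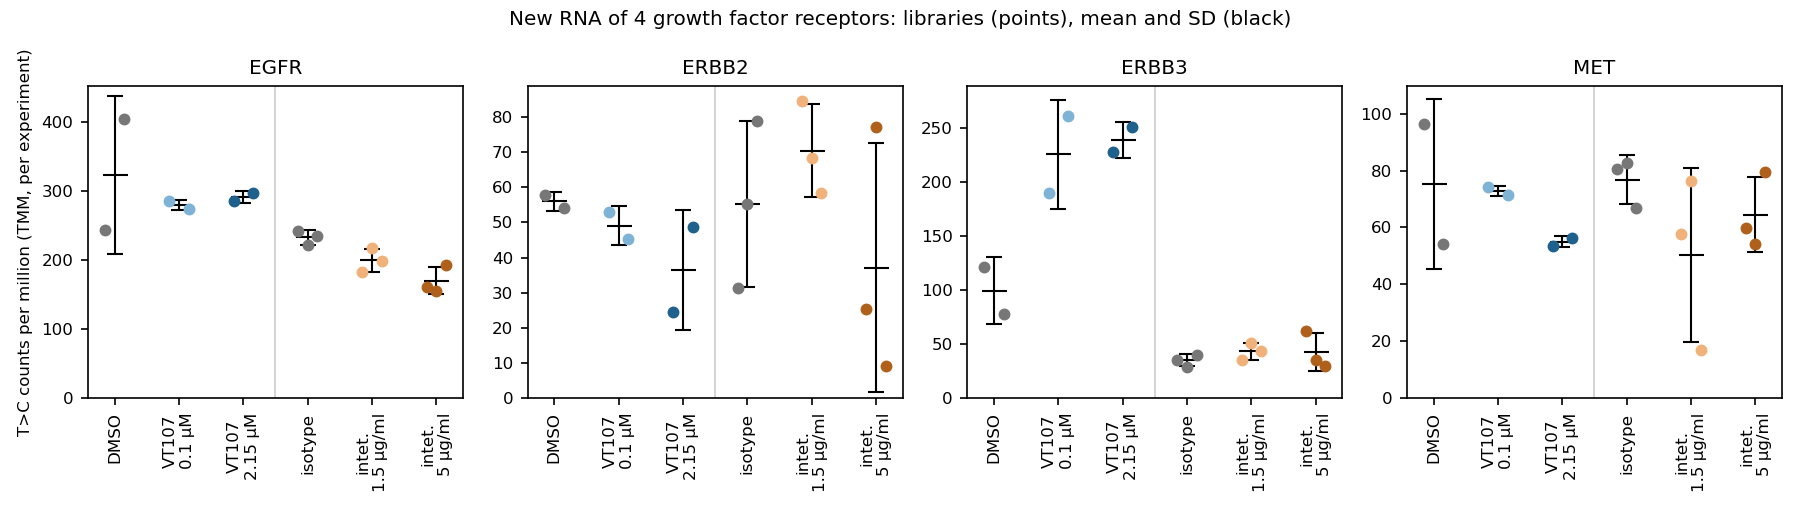
TMM-scaled CPM of newly made RNA (linear y axis) of EGFR, ERBB2, ERBB3 and MET in each labelled library (points), with the group mean and SD in black, and a grey line between the separately scaled experiments. ERBB3 is above DMSO in all 4 VT107 libraries (DMSO mean 99.3 CPM), as were 20.4% of all genes at 0.1 µM and 24.1% at 2.15 µM. The DMSO libraries of EGFR, at 243 and 404 CPM, lie on either side of the VT107 libraries.

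Against all genes tested, the 8 genes gave these counts. EdgeR called 0 of the 8 at an adjusted p under 0.05 in any comparison with a control, where it called 0% of all genes at 0.1 µM, 0.109% at 2.15 µM, 0% at 1.5 µg/ml and 0.0887% at 5 µg/ml. DESeq2 called 2 of the 8 at 0.1 µM, 2 at 2.15 µM, 0 at 1.5 µg/ml and 1 at 5 µg/ml, against 1.81%, 2.43%, 0.388% and 1.11% of all genes, and its own filter gave no adjusted p to some of the 8, AREG at 2.15 µM and both AREG and HBEGF at 1.5 µg/ml among them. At an unadjusted p under 0.05 in edgeR, 2 of the 8 were higher (AREG, ERBB3) and 1 lower (HBEGF) at each VT107 dose. The same threshold was met upward by 5.98% and downward by 6.11% of all genes at 0.1 µM, and by 5.28% and 6.3% at 2.15 µM. At 1.5 µg/ml intetumumab AREG was higher and HBEGF lower, against 2.4% and 3.07% of all genes. At 5 µg/ml AREG was higher, and HBEGF and EGFR were lower, against 4.33% and 4.9%.

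Groups of few libraries often do not overlap. With VT107 at 0.1 µM, 3 of the 8 genes lay wholly above DMSO and 2 wholly below, against 20.4% and 19.3% of all genes. At 2.15 µM the counts were 2 and 2, against 24.1% and 20.6%. These shares of the 8 are near the background for pairs of libraries. With intetumumab, 1 gene (AREG) lay above and 2 (HBEGF, EGFR) lay below the isotype at 1.5 µg/ml, against 5.62% and 6.72%, and at 5 µg/ml 0 lay above and 2 (HBEGF, EGFR) below, against 7.64% and 8.26%. The median log2 fold change of the 8 genes was 0.04, 0.01, 0.30 and -0.0040 at the doses from 0.1 µM VT107 to 5 µg/ml intetumumab, beside 0.01, 0.03, 0.01 and 0.0035 over all genes. The genes thus did not share a direction.

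**Figure D3:**
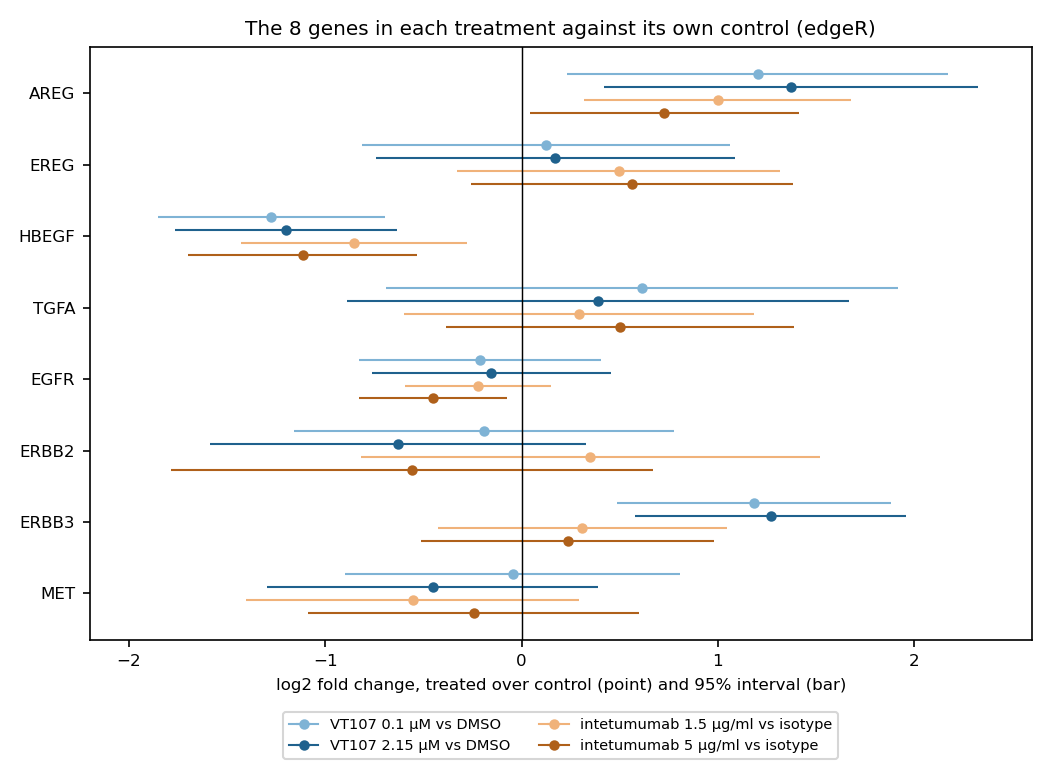
Log2 fold change of each gene from edgeR (points), for both VT107 doses over DMSO and both intetumumab doses over the isotype, with a line at 0. Bars are 95% intervals worked out from the F statistic, for each gene alone and not adjusted over all genes. All intervals of HBEGF lie below 0 and all of AREG above 0, those of ERBB3 lie above 0 for VT107 alone, and doses of 1 agent share their controls.

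**Figure D4:**
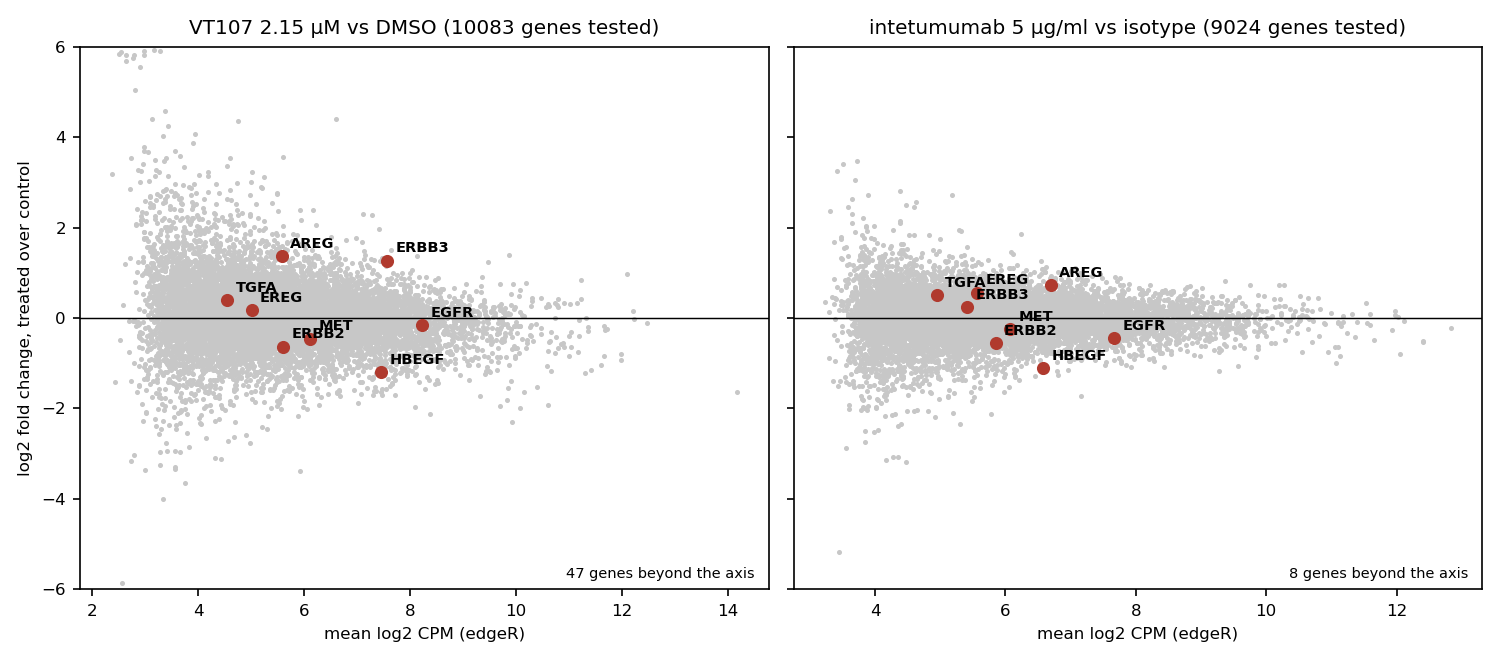
Log2 fold change (y axis) against mean log2 CPM (x axis) for all genes tested (grey) with the 8 genes in red, for the higher dose of each agent. By log2 fold change among the genes tested, HBEGF (-1.20 and -1.12) lies at percentiles 3.68 and 2.53, VT107 first. AREG lies at percentiles 95.2 and 94.0, and ERBB3 at 94.3 and 70.5.

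Comparisons of the doses gave 0 of the 8 genes called by edgeR for VT107 (0% of all genes) and 0 for intetumumab (0.0111%). At an unadjusted p under 0.05 the count was also 0 of 8 for each, against 5.3% and 5.64% of all genes, and DESeq2 called 0 of 8, against 0.0694% and 0.0443%. Groups did not overlap for 3 of the 8 genes between the VT107 doses, against 39.1% of all genes, and for 0 between the intetumumab doses, against 10.8%. The largest log2 difference between doses was that of ERBB2 with intetumumab, -0.91 (95% interval -2.13 to 0.32), higher over lower dose. Leaving out replicate 2 at 5 µg/ml gave -2.15, and leaving out replicate 3 gave -0.41. For the difference between the agents at their higher doses, edgeR and DESeq2 called 0 of the 8 genes, against 0.0782% and 1.02% of all 10227 genes tested, and 1 of the 8, ERBB3, had an unadjusted p under 0.05, against 9.06%.

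Ratios of raw counts within a library do not depend on how libraries are scaled. The pairs below were chosen after their values were seen and are given with no test. HBEGF counts over AREG counts stood at 14.9 and 10.0 in the DMSO libraries, at 1.68 and 3 with VT107 at 0.1 µM, and at 2.11 and 1.98 at 2.15 µM. The same ratio was 1.69, 2.52 and 2.40 with the isotype, 0.72, 0.517 and 0.507 with intetumumab at 1.5 µg/ml, then 1, 0.612 and 0.390 at 5 µg/ml. In both experiments every treated library lay below every control library. With VT107 and at 1.5 µg/ml intetumumab this had to follow, since HBEGF lay wholly below and AREG wholly above the control there. The isotype libraries, however, lay in the range of the VT107 libraries and below the DMSO libraries, so controls of the experiments differed in this ratio too.

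ERBB3 counts over EGFR counts were 0.5 and 0.191 in DMSO, 0.665 and 0.954 at 0.1 µM and 0.797 and 0.844 at 2.15 µM VT107. With the isotype they were 0.147, 0.131 and 0.171, and with intetumumab they reached from 0.153 to 0.386. AREG over EREG, the neighbours on chromosome 4, stood at 0.792 and 0.844 in the DMSO libraries and lay between 1.39 and 2.04 in the VT107 libraries. In the other experiment it was 1.22 to 2.67 with the isotype and 1.86 to 4.76 with intetumumab, with overlap.

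**Figure D5:**
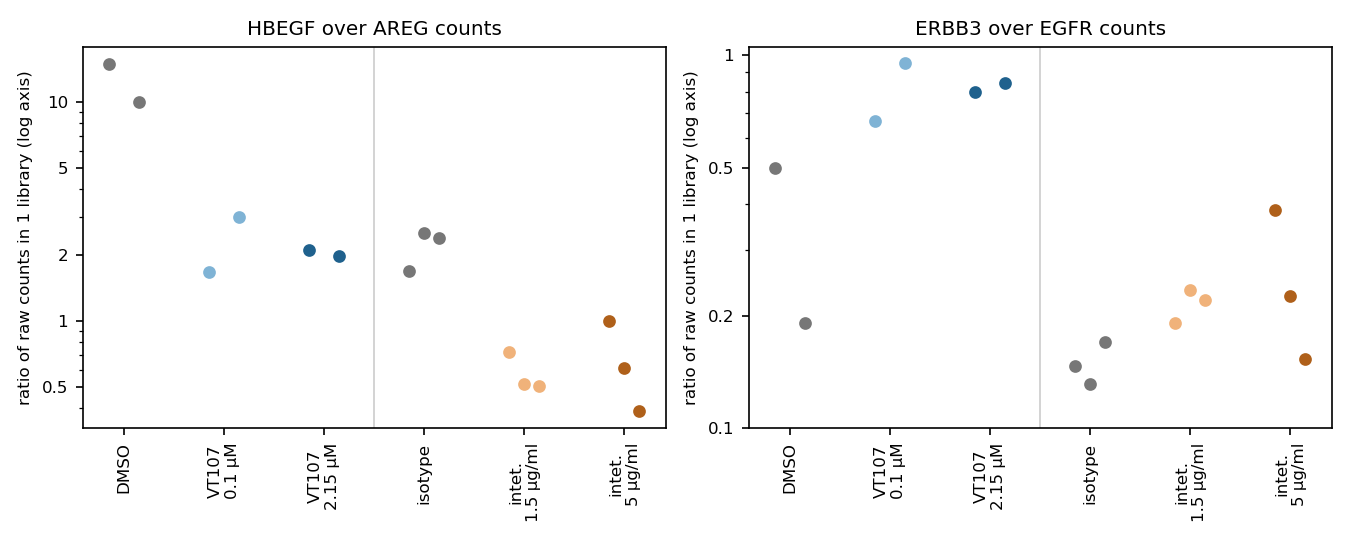
Raw counts of HBEGF over AREG (left) and of ERBB3 over EGFR (right) within each labelled library (points), on log axes, with a grey line between the experiments. HBEGF over AREG is lower in all treated libraries than in their controls (10.0 or more in DMSO, 3 or less with VT107). With VT107 this follows from the separate levels of HBEGF and AREG. ERBB3 over EGFR is above both DMSO values in all VT107 libraries.

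Within the VT107 experiment the order of group means was DMSO, 2.15 µM and 0.1 µM for HBEGF from high to low, and 2.15 µM, 0.1 µM and DMSO for AREG and ERBB3. The doses next to each other in these orders overlapped for AREG, HBEGF and ERBB3, and DMSO stood apart. In the intetumumab experiment the order was isotype, 1.5 µg/ml, then 5 µg/ml for HBEGF and EGFR, with overlap between the doses, and 1.5 µg/ml, 5 µg/ml and isotype for AREG, with overlap of each neighbour with the next. Over the 15 labelled libraries, after each experiment's mean was taken off, the genes most like EGFR in log2 CPM were ENSG00000160124 (Pearson r = 0.89, Spearman rho = 0.88), ENSG00000177106 (0.85 and 0.91) and ENSG00000179409 (0.81 and 0.86) among 8846 genes. These libraries differ in depth and treatment, and the correlations are a description.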

How the data were processed

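The authors deposited raw counts per Ensembl gene of reads assigned to newly made RNA by SLAM DUNK, as the series' design text says. Per the labels' protocols, libraries were made with a QuantSeq 3′ kit. The submitters' processing notes name build GRCh38. Not given in the sources used here are the version of SLAM DUNK, its annotation and the conversions it needed in a read. Libraries were grouped by title. Each experiment was fitted alone with edgeR 4.0.16 in R 4.3.3 (filterByExpr with minimum count 10, TMM, two-sided quasi-likelihood F-test), with Benjamini-Hochberg adjustment over all genes tested and a threshold of 0.05. The difference between agents used 1 fit of all 15 labelled libraries. Alternatives were DESeq2 1.42.0, other scalings, no filter, other sets of libraries, the replicate number as a block and each library left out. The fits were also run on simulated counts with known changes, and how many of these changes they recovered is not given here. All 8 genes are named, whatever their values, and the 3 genes most like EGFR, the one with the highest mean CPM, are given by ID. The 8 genes and the lists were chosen with earlier results of these data known. Lists of other pathway genes and cell type markers, written by symbol, were not analysed here, since the gene table held 0 Ensembl IDs. The SE of an edgeR log2 fold change was worked out as its size divided by the square root of the F statistic. Intervals of fold changes are at 95%, from that SE and a t quantile, and are not adjusted over all genes. The limit of 3 counts for a count of 0 covers counting error only, since amplified copies of a molecule are not independent.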

Additional observations from a re-analysis of the deposited data

Results flagged for a closer look

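The log2 fold change of ERBB2 had opposite signs at the lower doses of the agents, with intervals that span 0. It was -0.19 (95% interval -1.16 to 0.78) with VT107 at 0.1 µM. With intetumumab at 1.5 µg/ml it was 0.35 (-0.82 to 1.52), which leaves -0.54 between them. Both VT107 libraries (53.0 and 45.2 CPM) were below the DMSO mean of 56.0 CPM, and all 3 intetumumab libraries (84.7, 68.3 and 58.5 CPM) were above the isotype mean of 55.2 CPM. The isotype libraries themselves ranged from 31.4 to 78.8 CPM, and the difference was not tested.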

How the results depend on the processing

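Of 752 values of the 8 genes under alternatives, 705 kept their direction and side of the threshold, 9 passed it and 38 changed sign, in 20 of 56 results. HBEGF, AREG and ERBB3 kept their direction under every alternative in each comparison of VT107 with DMSO, and HBEGF and AREG in each of intetumumab with the isotype. DESeq2 called 2 of the 8 genes at 0.1 µM, 2 at 2.15 µM (HBEGF and ERBB3 each time) and 1 at 5 µg/ml (HBEGF), with 183, 245 and 100 genes called in all. Without the low-count filter edgeR called 1 (HBEGF) at 0.1 µM and 2 (HBEGF, ERBB3) at 2.15 µM, among 171 and 199 of 13575 genes, and with all 15 libraries in 1 fit 1 (HBEGF, adjusted p = 0.0433) at 2.15 µM, among 155 of 10227 genes. As reported, edgeR called 0 and 11 of 10083 genes at these doses. Scaling by total count moved the median of all genes at 2.15 µM from 0.03 to 0.18, and turned EGFR there to 0.0021, MET at 0.1 µM to 0.065 and the difference between agents to 0.045 for ERBB2 and 0.036 for HBEGF. Deviations of libraries with the same replicate number correlated at -0.030 to 0.044, so no shared replicate effect was seen. These correlations cannot show whether the samples were paired. With the replicate block 0 of the 8 genes were called in any comparison (5 of all genes at 2.15 µM and 1 at 5 µg/ml). The ERBB2 difference between agents turned to 0.10 with that block. The cause of these changes was not tested.

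With 1 library left out, signs turned in these ranges. Against DMSO, EGFR ranged from -0.53 to 0.20, EREG from -0.00096 to 0.26 and MET from -0.41 to 0.43 at 0.1 µM, and EGFR from -0.47 to 0.26, MET from -0.81 to 0.024 and TGFA from -0.11 to 1.20 at 2.15 µM. ERBB3 at 5 µg/ml ranged from -0.11 to 0.44. Between VT107 doses AREG ranged from -0.15 to 0.60, ERBB3 from -0.11 to 0.34, EREG from -0.10 to 0.20 and HBEGF from -0.066 to 0.22. Between intetumumab doses ERBB3 ranged from -0.42 to 0.14, EREG from -0.24 to 0.42, MET from -0.054 to 0.73 and TGFA from -0.15 to 0.45. For the difference between agents the ranges were -0.023 to 0.70 (EGFR), -0.63 to 1.18 (ERBB2), -0.22 to 0.069 (HBEGF), -0.59 to 0.26 (MET) and -0.62 to 0.68 (TGFA). Depth limits these values, since the lowest counts were 9 for TGFA, 8 for MET and 7 for ERBB2 in single labelled libraries.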
